A study of Homo sapiens with 6 samples.

Results

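Intermediate filaments give a cell and its nucleus mechanical strength, and 10 genes of this system outside the keratins were examined here. They are the lamins LMNA, LMNB1 and LMNB2, the cytoplasmic filament genes VIM, SYNM, NES and INA, and the plakins PLEC, EPPK1 and DST. They were chosen by name, and 9 of the 10 matched a row of the count table of 22681 genes. INA, the neuronal filament alpha-internexin, was not analysed here. Of those 9, 8 passed a filter on low counts and were tested among 14356 genes, and EPPK1 did not pass it.

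The libraries came from TPC-1-Len, a human papillary thyroid carcinoma line, TPC-1, that had been made resistant to the kinase inhibitor lenvatinib. One group had been transfected with a short hairpin RNA against KRT15 (shKRT15, n = 3) and the other with a non-targeting hairpin (shNC, n = 3). All 6 cultures were resistant and were grown in DMEM with fetal bovine serum, penicillin-streptomycin and 10 µM lenvatinib, and no drug-sensitive or untreated culture was analysed here. The labels name 1 hairpin against KRT15 and 1 resistant line. The replicates are called biological, but whether each had its own transfection is not stated, and the p-values below cover only the variation among these cultures.

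Lamins polymerise into a meshwork under the inner nuclear membrane. LMNA encodes the A-type lamins A and C, and LMNB1 and LMNB2 encode the B-type lamins, which stay attached to the membrane by a farnesyl group. Vimentin, the product of VIM, forms the cytoplasmic filaments of mesenchymal cells and of many carcinoma lines in culture, and synemin and nestin assemble with it. Plakins are very large linker proteins that tie filaments to actin, microtubules and junctions.

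The hairpin's target was checked first. KRT15, a type I keratin gene, had 1024, 1044 and 1005 reads in the shKRT15 libraries, against 1040, 1137 and 1284 in the shNC libraries. In CPM (reads scaled to a common library size with TMM factors), its level was 24.7 ± 0.365 in shKRT15 and 32.3 ± 3.77 in shNC (SD, n = 3 each). That is a change of −23.4% (95% interval −33.9% to −11.3%), with a Benjamini-Hochberg adjusted p of 0.00465 in edgeR's quasi-likelihood test, which gives all adjusted p-values for genes below. The call ended when KRT15 was tested against a 1.2-fold change in place of none (adjusted p = 0.124).

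Library totals were 39868231 to 41343780 reads in shKRT15 and 36286059 to 36808695 in shNC. The cells were labelled epithelial, but epithelial surface and junction markers were near 0. EPCAM had 6 reads over the shKRT15 libraries and 2 over the shNC libraries, and the claudin gene CLDN4 had 14 reads in shKRT15 and 279 in shNC. CLDN4 was low in each group, at 0.113 CPM in shKRT15 and 2.6 CPM in shNC. It passed the count filter and was called lower in shKRT15 (log2 fold change −4.49 ± 0.42 SE, adjusted p = 1.62e-07). CDH1, which encodes E-cadherin, had 1 read over the shKRT15 libraries and 4 over the shNC libraries. The thyroid transcription factor PAX8 stood at 410.4 CPM in shKRT15 and 375 CPM in shNC, and did not pass the test (adjusted p = 0.132), while TSHR, the thyrotropin receptor gene, had 0 reads in shKRT15 and 1 in shNC.

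All 3 lamin genes rose in shKRT15 cells, with the largest estimate for LMNB1, and so did VIM, SYNM and PLEC, while DST fell. Of the 8 members tested, 6 were called higher and 1 lower at an adjusted p under 0.05, and NES did not pass. Calls were common in this comparison: 45.0% of all tested genes were called, 22.1% as higher and 23.0% as lower. In 7 of the 8 the 3 shKRT15 libraries did not overlap the 3 shNC libraries, as in 54.0% of all tested genes. The median log2 fold change (shKRT15 over shNC) of the tested members was 0.55, against −0.001 over all tested genes.

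**Figure D1:**
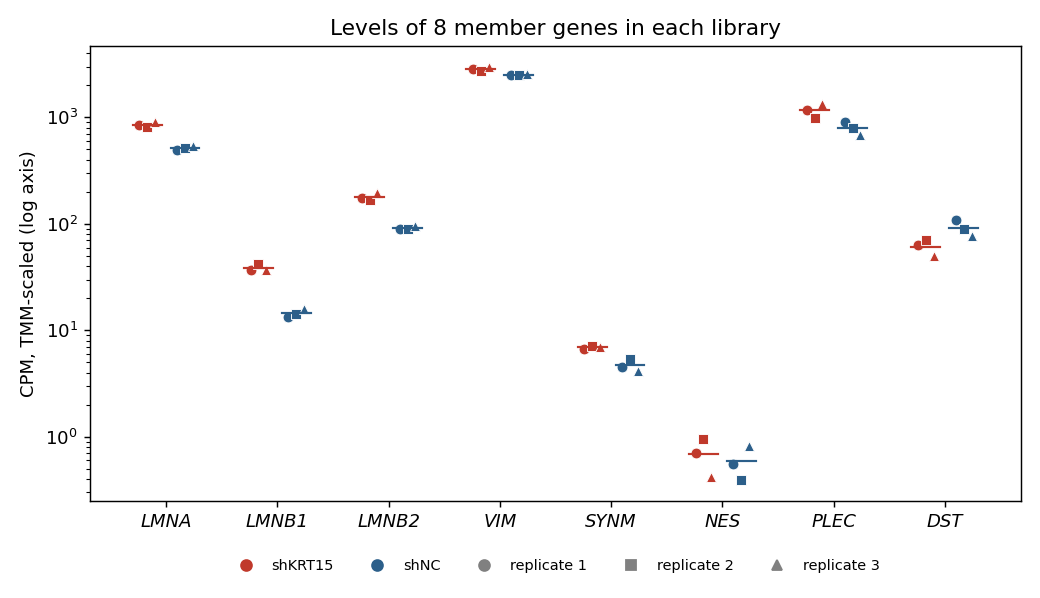
Level of 8 member genes in each library, in CPM with TMM scaling on a log axis, with shKRT15 libraries in red to the left of shNC libraries in blue, marker shapes for replicates and lines for means of 3. The 3 lamins, VIM, SYNM and PLEC lie higher in every shKRT15 library than in any shNC library, DST lies lower, and the NES libraries overlap.

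LMNB1, a B-type lamin, had the largest fold change of the members. It stood at 37.1, 42.3 and 36.8 CPM in the shKRT15 libraries (1518, 1815 and 1489 reads), against 13.3, 14.4 and 16.0 CPM in the shNC libraries (483, 514 and 566 reads). The lowest shKRT15 library was thus more than double the highest shNC library. Its fold change was 2.66 (95% interval 2.28 to 3.09), a log2 fold change of 1.41 ± 0.10 (SE, adjusted p = 8.74e-09). Only 307 of the 14356 tested genes had a larger rise, and 245 had a smaller p-value. The gene lies on chromosome 5 from 126776623 to 126837020 on the plus strand (GENCODE 29, GRCh38).

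LMNB2, the other B-type lamin gene, stood at 176, 166 and 194 CPM in shKRT15, against 89.0, 90.4 and 96.3 CPM in shNC. It rose 1.94-fold (95% interval 1.74 to 2.17), with a log2 fold change of 0.96 ± 0.08 (SE, adjusted p = 2.10e-08). LMNB2 lies on the minus strand of chromosome 19 from 2427638 to 2456996, and an exon of one of its non-coding transcripts overlaps an exon of the neighbouring gene TIMM13 on the same strand. TIMM13, a mitochondrial import chaperone gene, had reads equal to 23.2% to 26.9% of those of LMNB2 in shKRT15 and 39.9% to 45.0% in shNC, and it did not pass the test (log2 fold change 0.20 ± 0.09, adjusted p = 0.087).

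LMNA was the most abundant of the lamins. It stood at 855, 807 and 900.0 CPM in shKRT15, against 499, 511 and 540.1 CPM in shNC, with no overlap. Its fold change was 1.65 (95% interval 1.49 to 1.83), a log2 fold change of 0.72 ± 0.07 (SE, adjusted p = 2.32e-07). The counts are per gene, so lamin A and lamin C, which are splice products of LMNA on chromosome 1 (156082573 to 156140089, plus strand), cannot be told apart.

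The makeup of the lamin transcripts differed between these libraries. Dividing CPM by the length of each gene's longest annotated coding transcript, LMNA supplied 83.81% ± 0.35 of lamin transcripts in shKRT15 and 86.75% ± 0.12 in shNC (SD, n = 3 each). LMNB2 supplied 11.96% ± 0.31 in shKRT15 and 10.54% ± 0.05 in shNC. LMNB1 supplied 4.23% ± 0.55 in shKRT15 and 2.71% ± 0.13 in shNC. The share of LMNA was lower, and the shares of both B-type lamins were higher, in every shKRT15 library than in any shNC library.

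Read ratios within a library do not depend on how libraries are scaled. LMNB1 reads came to 4.34%, 5.24% and 4.09% of LMNA reads in the shKRT15 libraries, against 2.67%, 2.82% and 2.96% in the shNC libraries. That ratio was 1.61-fold higher in shKRT15, and the groups were apart in every library. LMNB2 over LMNA was 1.17-fold higher and LMNB1 over LMNB2 1.37-fold higher, again without overlap. Each of these 3 ratios had p = 0.1 in a two-sided exact permutation test, the smallest that 3 libraries against 3 allow, and an adjusted p of 0.12 over the 6 ratios tested, so none can pass the threshold in this design.

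The DNA just upstream of 3 member genes is shown because the lamins and VIM moved the same way and their start regions can be compared letter by letter. The sequences are from RefSeq (GRCh38.p14), are written 5′ to 3′ on the gene's own strand, and end at the base before an annotated start: chr1:156082323-156082572 for LMNA, chr5:126776373-126776622 for LMNB1 and chr10:17227991-17228240 for VIM, all on the plus strand. LMNA and LMNB1 have further annotated starts, and which start these cells use is not known from gene counts. Capitals mark matches to a CCAAT box (CCAAT), a GC box (GGGCGG), an E2F word (TTTCCCGC, TTTCGCGC, TTTGCCGC or TTTGGCGC), a cell cycle homology word (TTTGAA) or an AP-1 word (TGACTCA or TGAGTCA) on either strand.
LMNA: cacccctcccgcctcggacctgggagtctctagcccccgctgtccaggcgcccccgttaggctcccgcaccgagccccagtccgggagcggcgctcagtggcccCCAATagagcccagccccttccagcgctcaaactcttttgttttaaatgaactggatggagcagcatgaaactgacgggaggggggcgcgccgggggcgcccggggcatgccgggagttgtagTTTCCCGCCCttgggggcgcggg
LMNB1: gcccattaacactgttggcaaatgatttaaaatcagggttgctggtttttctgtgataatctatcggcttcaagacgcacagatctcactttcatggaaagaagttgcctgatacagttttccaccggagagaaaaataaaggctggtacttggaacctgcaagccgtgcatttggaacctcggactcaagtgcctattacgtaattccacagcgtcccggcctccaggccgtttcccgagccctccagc
VIM: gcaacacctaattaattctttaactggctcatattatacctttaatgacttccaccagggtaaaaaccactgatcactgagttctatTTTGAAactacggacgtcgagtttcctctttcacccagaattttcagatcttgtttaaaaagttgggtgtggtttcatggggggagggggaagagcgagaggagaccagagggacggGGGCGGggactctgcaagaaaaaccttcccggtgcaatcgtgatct

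The LMNA stretch held a CCAAT box that began 146 bases before the start and an E2F word that began 23 bases before it and overlapped a GC box. The VIM stretch held a GC box and a TTTGAA word, and the printed LMNB1 stretch held none of these words. The window before another annotated LMNB1 start (chr5:126776886-126777135) overlaps an exon of the gene and is not printed. It held 1 CCAAT box and 4 GC boxes, so the absence of these words in LMNB1 depends on the start chosen. The further LMNA windows, also not printed, held GC boxes only. Among all 35116 RefSeq windows of 250 bases, 32.0% held a CCAAT box, 42.6% a GC box, 2.79% an E2F word, 13.3% a TTTGAA word and 4.20% an AP-1 word. These matches describe letters in the windows and no binding was measured.

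VIM, on the plus strand of chromosome 10 (17228259 to 17237593), was the most abundant member per length and rose by a small amount. It stood at 2830.3, 2739.6 and 3003 CPM in shKRT15, against 2490.1, 2503 and 2535 CPM in shNC. Every shKRT15 library was higher than every shNC library. The rise was 13.9% (95% interval 3.0% to 25.9%), a log2 fold change of 0.19 ± 0.07 (SE, adjusted p = 0.0343). The call ended without shKRT15 replicate 1 (adjusted p = 0.0934) or 3 (0.101), without shNC replicate 1 (0.0595) or 2 (0.132), and against a 1.2-fold change (0.875).

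VIM took 0.291% of all counted reads in shKRT15 and 0.246% in shNC. Its antisense gene VIM-AS1, which overlaps its exons on the opposite strand of chromosome 10, rose by 0.55 ± 0.15 on the log2 scale (SE, adjusted p = 0.00700). The sources used here do not give the strand setting of the counting, so reads of this pair cannot be separated. VIM-AS1 had reads equal to 0.287% to 0.333% of those of VIM in shKRT15 and 0.204% to 0.269% in shNC.

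KRT8 and KRT18, the keratin pair of simple epithelia, are set beside VIM because vimentin and these keratins form separate filament networks in the same cells. There were 12.6, 12.0 and 12.7 VIM reads for each KRT8 or KRT18 read in shKRT15, against 19.9, 19.8 and 18.8 in shNC. The ratio was lower in every shKRT15 library, at 0.639 of its shNC value (two-sided exact permutation p = 0.1, the smallest possible, adjusted p = 0.12). KRT18 rose by 0.89 ± 0.07 on the log2 scale (SE, adjusted p = 1.37e-08), while KRT8 was at 0.20 ± 0.12 (adjusted p = 0.189). KRT18 has processed pseudogenes that resemble it closely, and how such reads were assigned is not known.

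SYNM, on the plus strand of chromosome 15 (99098217 to 99135593), encodes synemin, a large filament protein that assembles with vimentin. It was lowly expressed, at 6.67, 7.15 and 6.92 CPM in shKRT15 (273, 307 and 280 reads), against 4.50, 5.42 and 4.18 CPM in shNC (163, 193 and 148 reads). The groups did not overlap, and SYNM rose 1.47-fold (95% interval 1.16 to 1.87; log2 fold change 0.56 ± 0.16 SE, adjusted p = 0.00984). Against a 1.2-fold change the adjusted p was 0.0528.

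NES, on the minus strand of chromosome 1 (156668763 to 156677397), encodes nestin, a filament protein of progenitor cells. It had 29, 41 and 17 reads in the shKRT15 libraries, against 20, 14 and 29 in the shNC libraries, and the groups overlapped. Its log2 fold change was 0.24 ± 0.49 (SE, adjusted p = 0.721), with a 95% interval of 0.576-fold to 2.43-fold. That interval spans both a fall and a rise, so the direction for NES was not resolved at this depth. Nestin needs a partner such as vimentin to form filaments, and NES reads were 0.0250%, 0.0349% and 0.0140% of VIM reads in shKRT15 and 0.0222%, 0.0157% and 0.0323% in shNC.

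**Figure D2:**
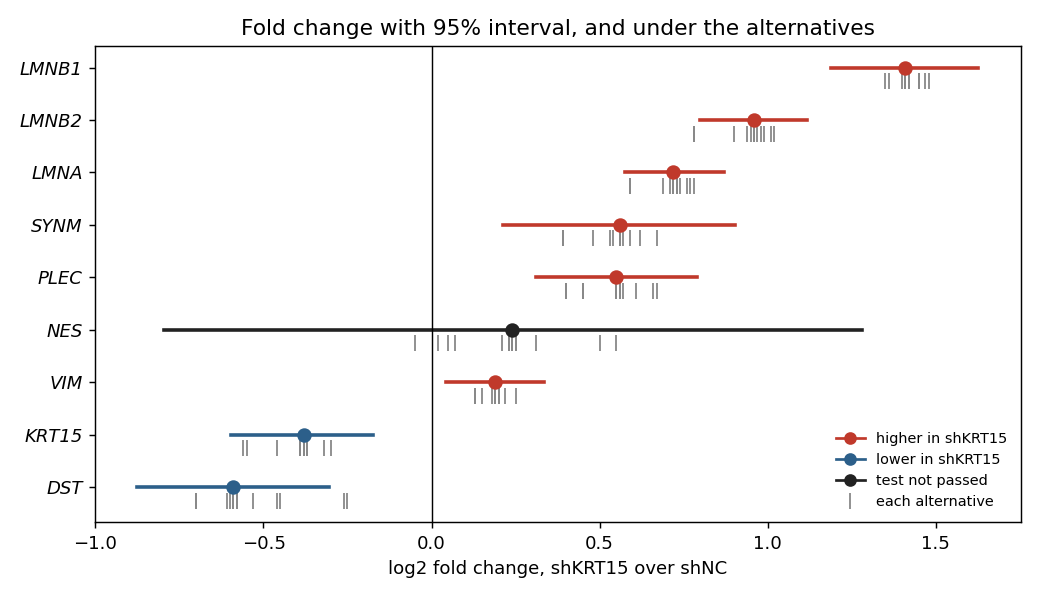
Log2 fold change (shKRT15 over shNC) of 8 members and KRT15, with points and bars for the estimate and its 95% interval, and grey ticks for the estimate under each alternative processing. LMNB1 lies highest at 1.41 and DST lowest at −0.59, and of these genes only NES has ticks on each side of 0.

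PLEC and DST, linker genes of the same family, moved in opposite directions. PLEC encodes plectin, which ties filaments to actin, to hemidesmosomes and to the nuclear envelope. It stood at 1182, 986 and 1335 CPM in shKRT15, against 908, 797 and 683 CPM in shNC. The spread between replicates was wide, with coefficients of variation of 15% in shKRT15 and 14.1% in shNC, yet the lowest shKRT15 library was above the highest shNC library. PLEC rose 1.47-fold (95% interval 1.24 to 1.73; log2 fold change 0.55 ± 0.11 SE, adjusted p = 0.00101).

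DST encodes dystonin, whose epithelial form joins keratin filaments to hemidesmosomes and whose other forms bind actin and microtubules. It stood at 63.5, 70.3 and 49.6 CPM in shKRT15, against 109, 90.4 and 77.0 CPM in shNC, with no overlap. DST changed by −33.5% (95% interval −45.5% to −19.0%), a log2 fold change of −0.59 ± 0.13 (SE, adjusted p = 0.00250). The call ended when trends with GC content and length were removed per library, at a log2 fold change of −0.25 (adjusted p = 0.0532), and it was made again when the replicate number was added to that fit (−0.26, adjusted p = 0.0155).

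The coding transcripts annotated for DST on the minus strand of chromosome 6 (56457987 to 56954628) run from 490 to 22431 bases, and those of PLEC on the minus strand of chromosome 8 (143915147 to 143976734) from 564 to 15249 bases. Which of these forms changed cannot be read from counts per gene. There were 18.6, 14.0 and 26.9 PLEC reads per DST read in shKRT15, against 8.35, 8.82 and 8.87 in shNC. That ratio was 2.21-fold higher in shKRT15, with every library apart (two-sided exact permutation p = 0.1, the smallest possible, adjusted p = 0.12). With trends of GC content and length removed, the log2 fold changes were smaller, at 0.40 for PLEC and −0.25 for DST. The ratio was not recomputed in that setting.

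Within shKRT15 the libraries with more PLEC had less DST, whereas within shNC the libraries with more PLEC had more DST. The shKRT15 libraries also differed in mitochondrially encoded transcripts. The summed level of 9 mitochondrial genes was 52844, 44131 and 62226 CPM in shKRT15 replicates 1, 2 and 3, in the same order as PLEC. In shNC this sum was 48560, 51286 and 49209.8 CPM, which was not the order of PLEC. Its part in the result was not tested, and PLEC and DST were each called with any 1 library left out. GC content differed as well, at 67.0% of the longest coding transcript for PLEC and 41.3% for DST. Over all tested genes the median log2 fold change was 0.11 in the fifth of genes with the highest GC content and −0.22 in the fifth with the lowest.

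EPPK1, on the minus strand of chromosome 8 (143857324 to 143878464), encodes epiplakin, a plakin that binds keratin and vimentin networks. It had 1, 5 and 1 reads in the shKRT15 libraries, against 1, 0 and 0 in the shNC libraries. The ratio of summed reads was 6.04 with an exact 95% interval of 0.776 to 272 (counting error only), so no difference was detectable at this depth. Of all stretches of 100 bases in its longest coding transcript, 46.0% occur more than once within that transcript, where the other 8 genes had none, and no such stretch from the longest coding transcript of any of the 9 occurs, read in the same direction, in an annotated transcript of another gene.

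Per length, the order of the mean levels was the same in each group. In CPM per kilobase of the longest coding transcript the levels in shKRT15 and shNC were 1339 ± 62.8 and 1175 ± 10.9 for VIM, 268 ± 14.7 and 162 ± 6.69 for LMNA, and 76.6 ± 11.5 and 52.2 ± 7.36 for PLEC (SD, n = 3 each). They were 38.2 ± 2.98 and 19.7 ± 0.828 for LMNB2 and 13.5 ± 1.07 and 5.07 ± 0.46 for LMNB1. The levels of DST were 2.73 ± 0.472 in shKRT15 and 4.10 ± 0.708 in shNC, those of SYNM 0.935 ± 0.0326 in shKRT15 and 0.635 ± 0.087 in shNC, and those of NES 0.125 ± 0.0481 in shKRT15 and 0.106 ± 0.0387 in shNC. Of neighbours in this order, LMNB1 and DST overlapped in shNC, and all other neighbours among these 8 were apart in each group.

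Set among the tested genes by level per length, VIM was above 99.7% of them in each shKRT15 library and above 99.6% to 99.7% in the shNC libraries. LMNB1, among the members, differed most in this ranking, above 66.6% to 69.8% of tested genes in shKRT15 and above 41.5% to 46.8% in shNC. LMNB2 was above 86.3% to 88.1% in shKRT15 and 75.5% to 76.8% in shNC. DST was above 29.4% to 34.3% in shKRT15 and 36.4% to 42.5% in shNC.

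**Figure D3:**
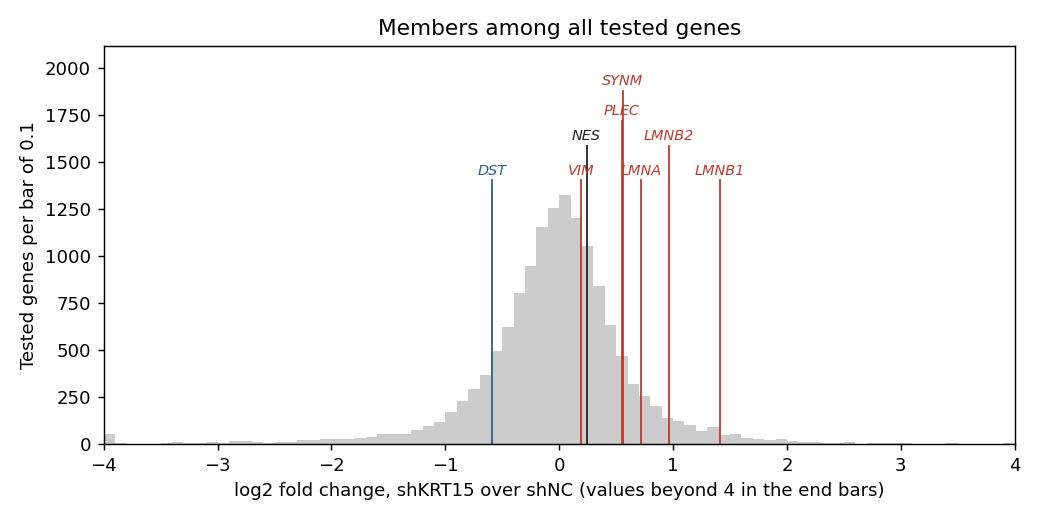
Distribution of log2 fold changes (shKRT15 over shNC) over 14356 tested genes in bars of 0.1, with lines at the 8 tested members. The centre of all genes lies at −0.001, LMNB1 at 1.41 lies in the right tail with 307 genes beyond it, and DST at −0.59 has 1952 genes below it.

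**Figure D4:**
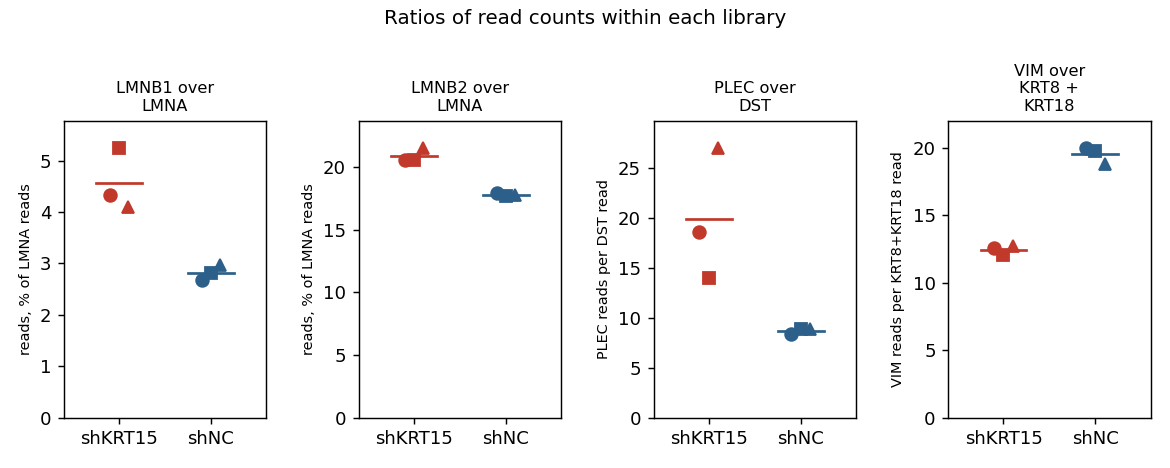
Ratios of read counts within each library, with shKRT15 left of shNC, marker shapes for replicates and lines for means of 3, on axes that start at 0. LMNB1 and LMNB2 over LMNA and PLEC over DST are higher in every shKRT15 library than in any shNC library, and VIM over KRT8 and KRT18 is lower.

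The remaining genes of the filament and plakin families were mostly too low to test. Of 8 other non-keratin filament genes, 2 were tested: BFSP1, a lens filament gene, rose by 0.88 ± 0.19 on the log2 scale (SE, adjusted p = 0.000957), and the muscle gene DES did not pass (0.50 ± 0.61, adjusted p = 0.54). The glial gene GFAP had 4 reads over the shKRT15 libraries and 5 over the shNC libraries. Of 5 other plakins only MACF1, the close relative of DST that crosslinks actin and microtubules, was tested. MACF1 rose by 0.37 ± 0.10 (SE, adjusted p = 0.00890), against the fall of DST. The desmosomal plakin DSP had 8 reads over the shKRT15 libraries and 18 over the shNC libraries.

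Partners of the lamins at the nuclear envelope moved both ways. Of 20 listed genes 19 were tested, and 8 rose, 5 fell and 6 did not pass, with a median log2 fold change of 0.13. Over all tested genes 45.0% were called, 22.1% as higher and 23.0% as lower, and the counts of each list below stand against these shares. TMPO, which encodes the lamina-associated LAP2 proteins, rose by 1.08 ± 0.08 (adjusted p = 6.15e-09), to 345 CPM in shKRT15, against 163 CPM in shNC. The nesprin gene SYNE3 rose by 1.02 ± 0.12 (adjusted p = 2.74e-06) and the inner membrane protein gene NRM by 0.92 ± 0.13 (adjusted p = 2.88e-05). LBR, the lamin B receptor, rose by 0.42 ± 0.08 (adjusted p = 0.000513), to 204 CPM in shKRT15, against 153 CPM in shNC. ANKLE2, which acts in nuclear envelope reassembly after mitosis, fell by 0.53 ± 0.07 (adjusted p = 1.21e-05).

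The bridge from the lamina to the cytoskeleton is built from SUN and nesprin proteins. SUN2 rose by 0.30 ± 0.07 (adjusted p = 0.00325) and SUN1 was at 0.15 ± 0.07 (adjusted p = 0.095). SYNE2 rose by 0.33 ± 0.12 (adjusted p = 0.0364), whereas SYNE1 fell by 0.46 ± 0.12 (adjusted p = 0.00465).

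Of enzymes that finish the lamin tail, 5 were tested, and 1 rose, 1 fell and 3 did not pass (45.0% of all tested genes were called). ICMT, the methyltransferase that caps farnesylated lamins, rose by 0.62 ± 0.08 (adjusted p = 5.22e-06). ZMPSTE24, the protease that cuts prelamin A, fell by 0.41 ± 0.08 (adjusted p = 0.000323). The farnesyltransferase genes FNTA (−0.18 ± 0.08, adjusted p = 0.0771) and FNTB (0.34 ± 0.68, adjusted p = 0.718) and the protease gene RCE1 (0.24 ± 0.12, adjusted p = 0.119) did not pass.

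LMNB1 is a gene whose transcript rises in dividing cells and falls in senescent ones. All 12 genes of a proliferation list rose, by 0.59 to 1.63 on the log2 scale with a median of 1.26, and LMNB1 at 1.41 lay inside that range. Their summed level was 2395 to 2422 CPM in shKRT15 and 1065 to 1126 CPM in shNC. LMNB1 came to 1.55%, 1.75% and 1.52% of that sum in shKRT15, against 1.18%, 1.29% and 1.5% in shNC. These shares did not overlap, but the closest libraries, at 1.52% and 1.5%, nearly met. The part of the proliferation genes in the LMNB1 result was not tested, and in bulk RNA more cells with the transcript and more transcript per cell cannot be told apart.

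Of 11 senescence-associated genes 7 fell, 2 rose and 2 did not pass, with a median log2 fold change of −2.20. The secreted factors CXCL8 (−3.43 ± 0.08), IL1B (−5.61 ± 0.14), IL6 (−2.64 ± 0.07) and IL1A (−4.86 ± 0.13) had the smallest p-values. The 2 that rose were the chromatin protein genes HMGB2 (0.85 ± 0.08, adjusted p = 1.32e-07) and HMGB1 (0.42 ± 0.07, adjusted p = 0.00019). Of the cell cycle inhibitor genes on this list, CDKN2B (−2.2 ± 0.08, adjusted p = 1.33e-12) and CDKN2A (−0.23 ± 0.07, adjusted p = 0.0173) fell. CDKN1A stood at 513 CPM in shKRT15 and 541 CPM in shNC and did not pass (adjusted p = 0.414).

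A list of kinases that phosphorylate lamins or vimentin, with their cyclin, shared CCNB1 and CDK1 with the proliferation list. Of its 14 genes, all tested, 8 rose, 2 fell and 4 did not pass, with a median of 0.26. The mitotic genes PLK1 (1.43 ± 0.09), CCNB1 (0.93 ± 0.07) and AURKB (0.98 ± 0.09) and the protein kinase C gene PRKCA (0.83 ± 0.10) had the smallest p-values, at adjusted p = 1.91e-09 to 2.12e-06. The 2 that fell were the kinases ROCK1 (−0.46 ± 0.11, adjusted p = 0.00247) and ROCK2 (−0.53 ± 0.12, adjusted p = 0.00273).

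Plectin and dystonin meet integrins and laminin at the hemidesmosome. Of 7 listed partners, COL17A1 (0.79 ± 0.11, adjusted p = 2.32e-05) and the integrin gene ITGA6 (0.28 ± 0.10, adjusted p = 0.025) rose. The laminin chain gene LAMB3 fell (−0.70 ± 0.07, adjusted p = 4.71e-07). ITGB4, the integrin chain that plectin binds, had only 49 reads over the shKRT15 libraries and 35 over the shNC libraries (0.27 ± 0.62, adjusted p = 0.751). Of 6 microtubule partners of the spectraplakins, MAPRE2 (0.52 ± 0.08, adjusted p = 7.53e-05) and the dynactin gene DCTN1 (0.32 ± 0.08, adjusted p = 0.00318) rose and the other 4 did not pass, with a median of 0.07. Among all tested genes 45.0% were called.

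**Figure D5:**
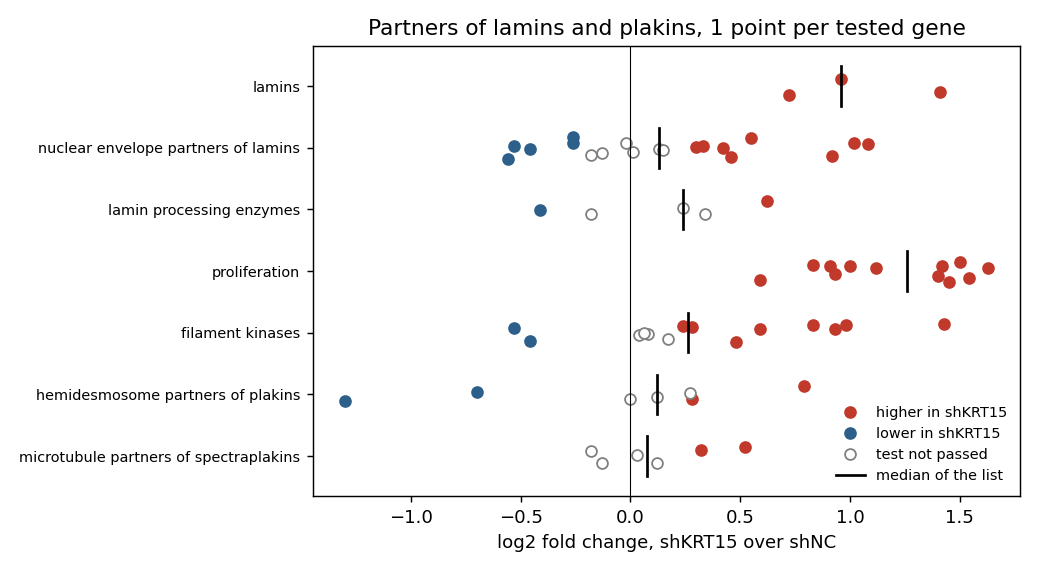
Log2 fold change (shKRT15 over shNC) of each tested gene of the lamin, partner, enzyme, kinase and proliferation lists, filled red where higher, filled blue where lower and open where the test was not passed, with a black bar at each list's median. The 3 lamins and the 12 proliferation genes all lie right of 0, and the other lists spread to each side of it.

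Markers of other cell types in which these filament genes are abundant were mostly low, and their part in the filament results was not tested. The 8 fibroblast markers summed to 7.87 to 8.60 CPM in shKRT15 and 18.1 to 23.6 CPM in shNC, the 6 muscle markers with a row to 5.80 to 7.79 CPM in shKRT15 and 10.1 to 11.2 CPM in shNC, and the 5 endothelial markers with a row to 1.14 to 2.10 CPM in shKRT15 and 0.814 to 1.86 CPM in shNC. The 7 neuronal markers with a row summed to 2.23 to 3.10 CPM in shKRT15 and 4.29 to 6.49 CPM in shNC. Of 6 glial markers only MBP and AQP4 had a row, and MBP averaged 106 CPM in shKRT15 and 52.0 CPM in shNC, while AQP4 averaged 0.191 CPM in shKRT15 and 0.141 CPM in shNC. The 6 leukocyte markers with a row summed to 157 to 185 CPM in shKRT15 and 204 to 205 CPM in shNC, mostly from CD68 and LAPTM5, and PTPRC, the pan-leukocyte marker, had 0 reads in shKRT15 and 43 in shNC.

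The genes whose profiles over the 6 libraries were most like that of LMNB1 were the spindle protein gene NUSAP1 (Pearson r = 0.9991), the signal recognition particle gene SRP9 (0.9989) and the serine synthesis gene PHGDH (0.9989), among the 9320 genes that averaged 10 CPM or more. Those most like DST were TMED7 (0.9974), GOLGB1 (0.9973) and EHBP1 (0.9959). With 6 libraries in 2 groups such values are frequent: 812 genes reached 0.95 with LMNB1 and 282 with DST.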

How the data were processed

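Total RNA was isolated with TRIzol and Illumina libraries were made from purified mRNA, per the labels' protocols. The authors deposited raw read counts per gene for 6 libraries, 1 whole number per gene and library with no normalization, and each column was placed by its name in the labels. The genome build was GRCh38, per the submitters' processing notes, whereas the sources used here do not give the aligner, counter, annotation or strandedness.

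All 22681 genes entered the fit, with edgeR 4.0.16 (R 4.3.3; quasi-likelihood test), TMM scaling, robust estimation and filterByExpr (minimum count 10, minimum total 15), which kept 14356. P-values were adjusted by Benjamini-Hochberg over all of them and called under 0.05. Alternatives were other scalings and filters, DESeq2 1.42.0, limma-voom (limma 3.58.1), a replicate block, GC and length correction (GENCODE 29, available for 94.9% of tested genes), a test against a 1.2-fold change, and leaving out each library. No 2 libraries agreed within sampling noise (chi-square per degree of freedom at least 6.05). Counting intervals cover counting error only.

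The members and lists were chosen with earlier results of these data known. Named were all members, KRT15, the 4 called genes with the smallest p-values of each list, any gene of lists with 5 or fewer called or tested, and the 3 profiles most like the member with the smallest p-value in each direction. AQP4, LBR, SUN1, SUN2, SYNE1, SYNE2, ROCK1, ROCK2, GFAP, DSP, ITGB4, MBP, PTPRC, HMGB1, HMGB2, CDKN1A, CDKN2A, CDKN2B, TIMM13, VIM-AS1 and the thyroid and epithelial markers were added after their values were seen. Some genes of these lists are not reported here.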

Additional observations from a re-analysis of the deposited data

How the results depend on the processing

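LMNA, LMNB1, LMNB2 and PLEC kept their direction and their call under all 18 alternatives, with log2 fold changes of 0.59 to 0.78, 1.35 to 1.48, 0.78 to 1.02 and 0.40 to 0.67. SYNM and DST kept their direction in all 18 and their call in 17, and VIM kept its direction in all 18 and its call in 13. NES turned to −0.05 without shKRT15 replicate 2, in a range of −0.05 to 0.55 over the libraries left out. Removing trends with GC content and length left 0 members called lower in edgeR (DST, adjusted p = 0.0532). Testing against a 1.2-fold change called 3672 genes, 1720 higher and 1952 lower, in place of 6464, and ended the call of KRT15 (−0.38, adjusted p = 0.124); a stricter null calls fewer genes by construction. Leaving out each library gave 5194 to 6747 called genes and 6 or 7 called members. The ratio of NES to VIM ran from −0.26 to 0.40 (log2 difference, shKRT15 minus shNC) over the libraries left out, and the other 5 ratios kept their direction. No ratio was recomputed with trends of GC content and length removed. Total-count scaling shifted the median of all genes to 0.059 and 3740 genes were then called higher and 2711 lower.

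The replicate numbers are shared between groups, but deviations of same-numbered libraries had correlations near 0 (−0.00742 to 0.0462), against −0.0476 to 0.0306 for the other pairs. Replicates 1 and 3 of shKRT15 correlated best with their same-numbered shNC library, and shKRT15 replicate 2 with shNC replicate 1. With the replicate block 6733 genes were called, 6 members higher and 1 lower. Depth limits EPPK1 (7 reads in shKRT15 and 1 in shNC) and NES (87 reads in shKRT15 and 63 in shNC).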
